A study of Homo sapiens with 6 samples.

Results

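Nonsense-mediated mRNA decay (NMD) destroys mRNAs on which translation stops too early, and 9 genes of its core machinery were examined here: UPF1, UPF2, UPF3A, UPF3B, SMG1, SMG5, SMG6, SMG8 and SMG9. They were taken by symbol, without regard to their values, from the 38100 genes of a count table of poly(A)-selected RNA. All 9 passed the filter on low counts that left 17720 genes for testing. The RNA came from HK2 cells, an established human proximal tubular epithelial line, in 6 samples. In 3 of them (AdCtrl) the cells received an adenovirus carrying an empty vector, and in the other 3 (AdSIRT4) an adenovirus carrying SIRT4, a sirtuin best known from mitochondria. Both groups were of wild-type genotype and both were stimulated with TGF-β1, the cytokine that drives fibrosis, so neither group stands for unstimulated cells. The virus was present for 6 hr before the medium was changed, and the dose and time of TGF-β1 for these samples were not given in the sources used here. For cell culture the study gives n as technical replicates, so the p-values below measure only the spread between these samples, which may be technical. The cell line entry of the labels runs from HK2 to HK7 over the samples, whereas every title names HK2.

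A ribosome that stops at a premature stop codon leaves exon junction complexes on the mRNA downstream of it. UPF3B, or its paralog UPF3A, sits on these complexes and binds UPF2, which binds and activates the RNA helicase UPF1. SMG1 is the kinase that phosphorylates UPF1, and SMG8 and SMG9 hold the kinase in check until then. Phosphorylated UPF1 recruits SMG6, an endonuclease that cuts the mRNA near the stop codon, and SMG5, which helps to bring in deadenylation and decapping. Several mRNAs of the machinery are themselves known as NMD targets, often through a long 3′ UTR. Retained introns commonly carry stop codons, and the study asked how SIRT4 acts on splicing. The levels of the NMD factors are therefore part of the setting in which spliced mRNAs were counted.

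Of the members, the SMG1 gene shares windows of its transcript with the largest number of other genes, since stretches of it were copied along chromosome 16 as pseudogenes. Of its 100-base transcript windows, 11.48% occur in another annotated gene, and 2 stretches are shown as an example of each kind. Both are read from the GRCh38 genome on the minus strand, 5′ to 3′, with no base singled out. The first, at chr16:18879538-18879637 in exon 11 of 63, is found unchanged in all 7 pseudogenes SMG1P1 to SMG1P7. The second, at chr16:18896857-18896956 in exon 2, is found in no other annotated gene.
SMG1 shared stretch: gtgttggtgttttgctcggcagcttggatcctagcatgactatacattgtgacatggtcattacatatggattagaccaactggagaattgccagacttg
SMG1 own stretch: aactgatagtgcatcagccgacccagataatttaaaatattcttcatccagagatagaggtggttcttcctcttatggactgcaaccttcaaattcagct
The shared stretch thus occurs in at least 8 annotated genes and the own stretch in 1. Copies outside annotated transcripts and copies with mismatches were not searched for. UPF3A is the other member with close copies, since 25.7% of its windows recur in the pseudogenes UPF3AP1 and UPF3AP2. For SMG8 the share was 9.68%, all of it in the overlapping gene AC099850.2 on the same strand. For SMG6 it was 28.72%, all of it in HIC1 on the opposite strand, and whether counting used strand is not stated. HIC1 itself was counted at only 1.33 CPM in AdCtrl and 1.60 CPM in AdSIRT4 cells. None of the windows of UPF1, UPF2, UPF3B, SMG5 and SMG9 recurred in another gene. Counts of SMG1, UPF3A and SMG8 are accordingly uncertain to the extent of their shared windows, and so are those of SMG6 if counting ignored strand. None of these SMG1 and UPF3A pseudogenes was among the genes of the count table. How reads shared with them were assigned could therefore not be worked out.

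The libraries held 42102861 to 53677241 counts in the AdCtrl samples and 41537353 to 85684748 in the AdSIRT4 samples. Levels between samples are given as CPM, counts of a gene scaled to the size of its library and corrected with TMM factors. Before that correction, 3 counts, the limit a count of 0 allows, come to 0.0350 to 0.0722 CPM. SIRT4 itself stood at 0.930 ± 0.309 CPM (SD, n = 3) in AdCtrl and 76.0 ± 21.9 CPM in AdSIRT4 cells, as its labels say. In edgeR's quasi-likelihood test SIRT4 had a log2 fold change of 6.36 and a Benjamini-Hochberg adjusted p of 0.00801. AdSIRT4 replicate 1 stood apart from replicates 2 and 3 of its group. Across 14550 tested genes with an annotated length, its deviation from their mean ran with transcript length at a Spearman correlation of -0.57, against -0.14 to 0.17 for the AdCtrl libraries. Replicates 2 and 3 had values of 0.49 and 0.54, but each was set against a mean that includes replicate 1. The median deviation was 0.65 (log2 CPM) in genes with transcripts of up to 1516 bases and -0.62 in genes with at least 7523 bases. The comparisons of the members and of the related lists are therefore also given without this library. As for the cell type, epithelial markers such as KRT8 and EPCAM summed to 1690 to 1750 CPM in AdCtrl and 1630 to 2220 CPM in AdSIRT4 samples. KRT8 alone was at 819 to 852 CPM in AdCtrl and 751 to 1095 CPM in AdSIRT4 samples. CDH1 (E-cadherin), of the same list, was below 0.87 CPM throughout. GGT1 carried the proximal tubule list (228 to 249 and 211 to 221 CPM), with LRP2 at 0 in every AdCtrl sample and CUBN and AQP1 below 0.28 CPM throughout. Leukocyte markers summed to 34.3 to 39.6 and 38.3 to 49.4 CPM, carried by CD68, with CD3E at 0. The fibroblast list summed to 16.9 to 18.6 and 15.5 to 23.1 CPM, carried by LUM, and endothelial markers were below 0.53 CPM.

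None of the 9 NMD factors passed the test of AdSIRT4 against AdCtrl cells. In edgeR's quasi-likelihood test, 0 of 9 had an adjusted p under 0.05, where 0.0113% of all tested genes (2 of 17720) did. At an unadjusted p under 0.05 the members again numbered 0 of 9, against 7.93% of all tested genes (4.43% higher and 3.50% lower in AdSIRT4 cells). DESeq2 also called 0 of 9, where it called 1.20% of all genes. The 3 AdSIRT4 values overlapped the 3 AdCtrl values for all 9, whereas the groups did not overlap for 19.4% of tested genes. The median log2 fold change of the members was -0.053, with 2 above 0 and 7 below, beside 0.021 over all tested genes. Leaving out AdSIRT4 replicate 1 turned this median to 0.031, with 5 above 0 and 4 below, and again 0 of 9 were called at either threshold. In that fit 6.71% of 18287 genes had an adjusted p under 0.05 (3.37% higher, 3.34% lower) and 24.3% an unadjusted one, so the background of calls there was much higher. With the replicate number as a block, 0 of 9 members and 7.20% of all genes had an unadjusted p under 0.05. The exact permutation test of the CPM values, two-sided, gave p from 0.3 to 1 for the members, and 3 samples against 3 cannot give less than 0.1.

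**Figure D1:**
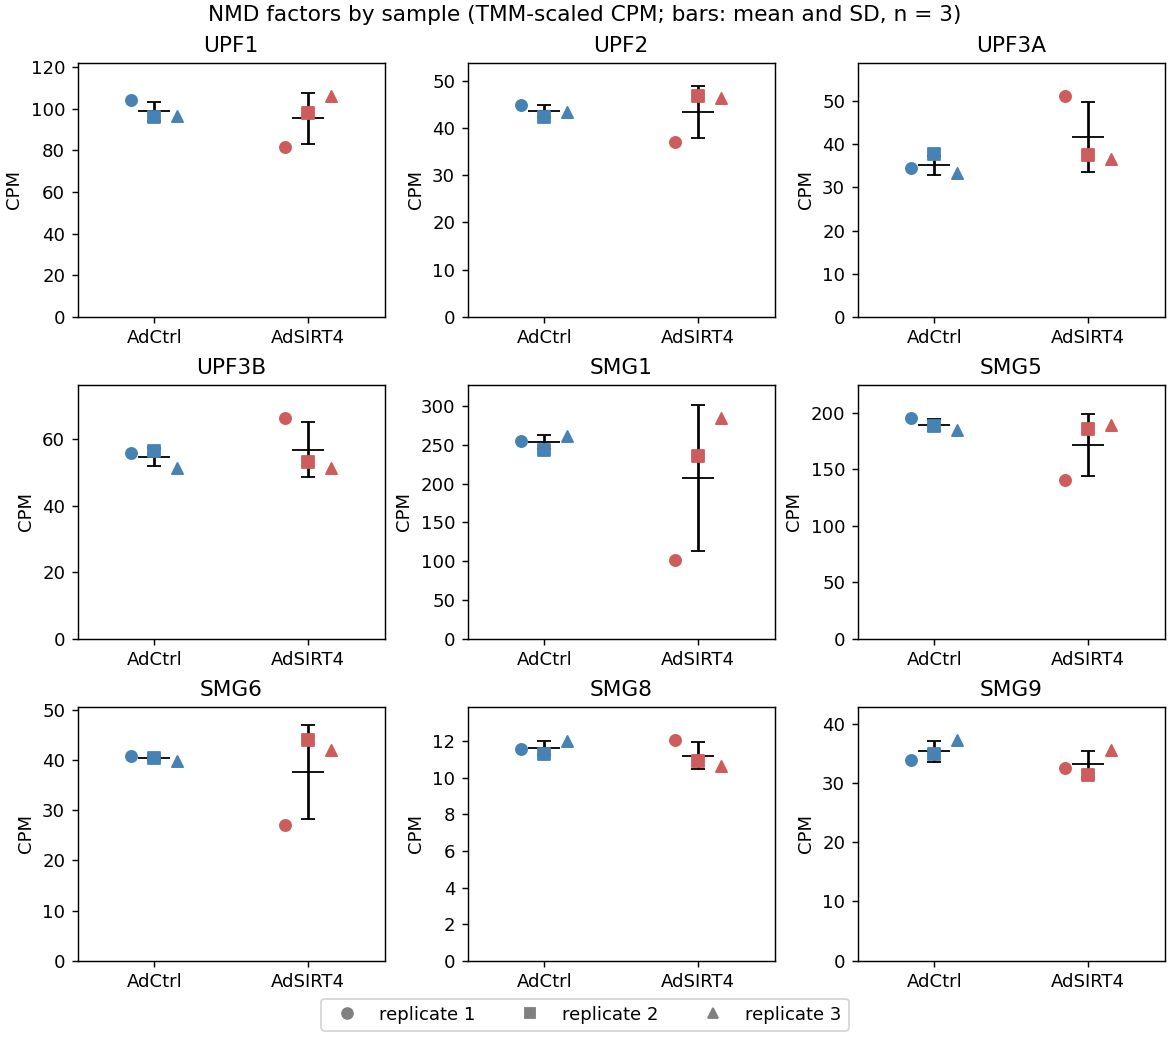
CPM of the 9 NMD factors in each sample (y axis from 0, in CPM after TMM scaling), with AdCtrl in blue, AdSIRT4 in red, symbols for the replicates, and the mean and SD of 3 samples as a line and bars. AdSIRT4 replicate 1 is the lowest sample for UPF1, UPF2, SMG1, SMG5 and SMG6 and the highest for UPF3A, UPF3B and SMG8.

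UPF1 is the helicase on which the pathway turns (chr19:18831938-18868236, plus strand, 23 coding exons). It was at 104, 96.2 and 96.3 CPM in AdCtrl replicates 1 to 3 and at 81.9, 98.1 and 106 CPM in AdSIRT4 replicates 1 to 3. The AdSIRT4 samples thus lay on both sides of the AdCtrl range. Its means were 98.9 ± 4.53 and 95.3 ± 12.3 CPM (SD, n = 3). UPF1 had a log2 fold change of -0.052 ± 0.118 (SE), with a 95% interval of -0.33 to 0.23. The adjusted p was 0.888 in edgeR. Without AdSIRT4 replicate 1 the value was 0.041, with the interval narrowed to -0.088 to 0.17. UPF2, the adaptor between UPF1 and the UPF3 proteins (chr10:11920022-12043170, minus strand), was at 44.9, 42.5 and 43.5 CPM in AdCtrl cells and at 37.2, 46.8 and 46.5 CPM in AdSIRT4 cells. Replicates 2 and 3 of AdSIRT4 were above all AdCtrl samples and replicate 1 was below them. The UPF2 means of 43.6 ± 1.21 and 43.5 ± 5.47 CPM gave a log2 fold change of -0.0037 (95% interval -0.28 to 0.27, adjusted p = 0.991 in edgeR). This became 0.092 (-0.030 to 0.21) without AdSIRT4 replicate 1.

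The UPF3 paralogs bridge UPF2 to the exon junction complex, and UPF3A is the weaker of the pair in promoting decay. UPF3A (chr13:114281584-114305817, plus strand) was at 34.5, 37.7 and 33.3 CPM in AdCtrl cells and at 51.2, 37.5 and 36.6 CPM in AdSIRT4 cells. Its log2 fold change of 0.25 was the highest of the members, but the value in AdSIRT4 replicate 1 set it: the 95% interval was -0.11 to 0.60 and the adjusted p 0.718 in edgeR. Without that library it was 0.073 (-0.078 to 0.23). UPF3B (chrX:119805311-119852998, minus strand) was at 55.9, 56.6 and 51.5 CPM in AdCtrl cells and at 66.4, 53.0 and 51.2 CPM in AdSIRT4 cells. Here too replicate 1 was the only AdSIRT4 sample above the AdCtrl range. The UPF3B log2 fold change was 0.058 (-0.23 to 0.35, adjusted p = 0.883 in edgeR) and -0.072 (-0.20 to 0.057) without replicate 1.

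Because both paralogs can fill the same place, the ratio of UPF3A to UPF3B was taken within each sample from the FPKM values, which are scaled by transcript length and depth. It was 0.631, 0.688 and 0.668 in AdCtrl replicates 1 to 3 and 0.787, 0.727 and 0.734 in AdSIRT4 replicates 1 to 3. All 3 AdSIRT4 ratios were above all 3 AdCtrl ratios. On the log2 scale the means were -0.60 ± 0.063 and -0.42 ± 0.063 (SD, n = 3), a difference of 0.18 with p = 0.1 in the exact permutation test, two-sided, the smallest p the design allows. From CPM the difference was 0.18, and without AdSIRT4 replicate 1 it was 0.14. The longest annotated transcripts of the paralogs have nearly equal lengths, 2423 bases for UPF3A and 2378 bases for UPF3B. Of the 36 ratios between members, 3 (8.33%) did not overlap between the groups. Besides UPF3A to UPF3B they were UPF2 to SMG5, with a log2 difference of 0.14, and UPF3A to SMG8, with 0.29. Each had p = 0.1 in the exact permutation test. By CPM of single genes, the groups did not overlap for 19.4% of tested genes. The share among ratios of other genes was not worked out, so the 3 ratios have no like background. A part of UPF3A reads can stem from its pseudogenes, and their share was not tested.

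SMG1 was the member with the highest CPM and with the widest spread. This kinase gene (chr16:18804853-18926454, minus strand, 63 exons) was at 255, 244 and 262 CPM in AdCtrl cells and at 102, 235 and 285 CPM in AdSIRT4 cells. The AdSIRT4 group held both the lowest and the highest of the 6 samples. Its means of 253 ± 9.07 and 207 ± 94.4 CPM (SD, n = 3) gave a log2 fold change of -0.29 ± 0.34 (SE), a 95% interval of -1.09 to 0.51 and an adjusted p of 0.806 in edgeR. Without AdSIRT4 replicate 1 the sign changed, to 0.031, and the interval was -0.13 to 0.19. That library held 0.395 times the mean SMG1 level of the other two AdSIRT4 samples. Genes that share windows with SMG1 and were counted did not follow 1 course. NPIPB5, with 2.58% of the SMG1 windows, was at 24.0, 39.4 and 28.8 CPM in AdCtrl and at 22.7, 37.6 and 38.9 CPM in AdSIRT4 cells, so that AdSIRT4 replicate 1 was its lowest sample as for SMG1. BOLA2-SMG1P6, a readthrough transcript with an SMG1 pseudogene and 1.64% of the windows, was at 14.9, 14.4 and 13.8 CPM in AdCtrl and at 16.3, 13.3 and 14.1 CPM in AdSIRT4 cells, so that the same library was its highest sample. It was the highest also for BOLA2, with 1.08% of the windows. BOLA2 was at 6.55, 6.12 and 4.65 CPM in AdCtrl and at 9.90, 4.74 and 5.03 CPM in AdSIRT4 cells.

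The other subunits of the kinase complex varied less. SMG8 (chr17:59209400-59215247, plus strand) was the least abundant member, at 11.6, 11.3 and 12.0 CPM in AdCtrl cells and at 12.1, 10.9 and 10.7 CPM in AdSIRT4 cells. SMG9 (chr19:43727992-43754990, minus strand) was at 33.8, 34.9 and 37.2 CPM in AdCtrl cells and at 32.6, 31.3 and 35.5 CPM in AdSIRT4 cells. For SMG8 replicates 2 and 3 of AdSIRT4 were below all AdCtrl samples, and for SMG9 replicates 1 and 2 were. SMG8 had a log2 fold change of -0.053 (95% interval -0.29 to 0.19, adjusted p = 0.869 in edgeR) and SMG9 one of -0.092 (-0.32 to 0.14, adjusted p = 0.790). Leaving out AdSIRT4 replicate 1 gave -0.11 (-0.29 to 0.067) and -0.084 (-0.25 to 0.076). SMG9 was the only member to reach an unadjusted p under 0.05 in any fit, with limma on log2(FPKM + 1) and the replicate block. There 8.33% of all genes passed (4.13% lower in AdSIRT4 cells), so 1 member of 9 is near the background.

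The effectors SMG5 and SMG6 act after UPF1 is phosphorylated. SMG5 (chr1:156249224-156282825, minus strand) was at 195, 188 and 184 CPM in AdCtrl cells and at 140, 186 and 189 CPM in AdSIRT4 cells. The endonuclease SMG6 (chr17:2059839-2303771, minus strand) was at 40.9, 40.5 and 40.0 CPM in AdCtrl cells and at 27.0, 44.0 and 42.1 CPM in AdSIRT4 cells. In both genes AdSIRT4 replicate 1 was the lowest of the 6 samples, while SMG6 was above the AdCtrl range in replicates 2 and 3. SMG5 had a log2 fold change of -0.14 (95% interval -0.46 to 0.18, adjusted p = 0.779 in edgeR), which was -0.020 (-0.13 to 0.093) without that library. SMG6 had one of -0.099 (-0.53 to 0.34, adjusted p = 0.869 in edgeR), which was 0.087 (-0.039 to 0.21) without it.

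**Figure D2:**
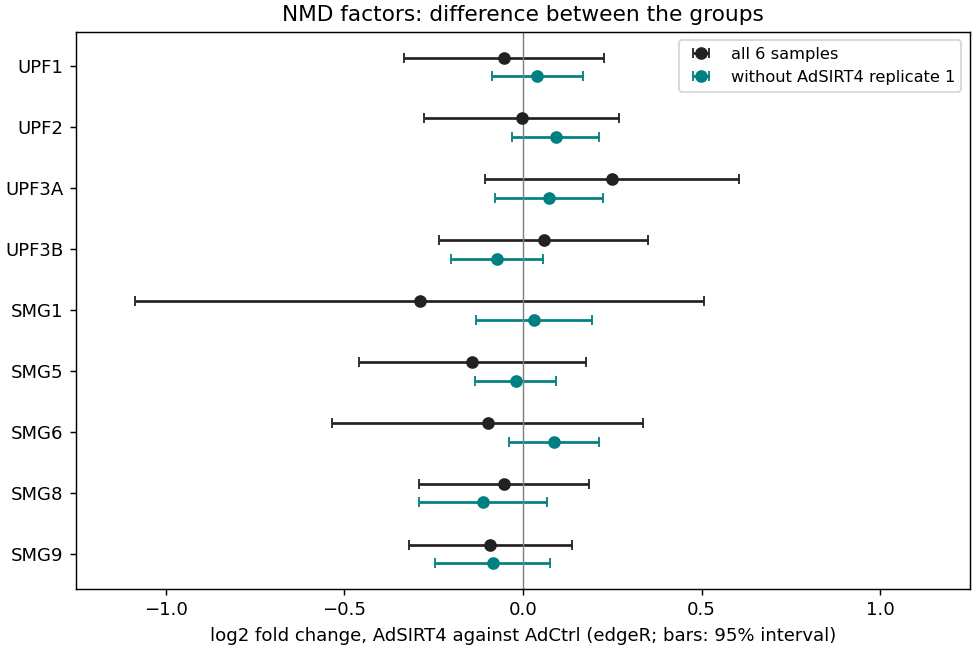
Log2 fold change of each NMD factor, AdSIRT4 against AdCtrl (x axis, edgeR), with 95% intervals, from all 6 samples (black) and without AdSIRT4 replicate 1 (green). Every interval holds 0, and for SMG1 it narrows from -1.09 to 0.51 to -0.13 to 0.19.

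The order of the members in AdSIRT4 replicate 1 ran with transcript length, though not strictly, with SMG5 and SMG9 out of line. Set against the mean of AdSIRT4 replicates 2 and 3, its log2 CPM was 0.35 higher for UPF3B, 0.47 higher for UPF3A and 0.16 higher for SMG8, the 3 members with the shortest transcripts (2378, 2423 and 3477 bases). For UPF1, UPF2 and SMG9, with longest transcripts of 5348, 5569 and 5510 bases, the deviations were -0.32, -0.33 and -0.035. They were -0.42 for SMG5 (4559 bases), -0.67 for SMG6 (5960 bases) and -1.34 for SMG1 (16115 bases). Over the 9 members deviation and length had a Spearman correlation of -0.87, given as a description of this one library. For AdCtrl replicates 1 to 3, each set against the rest of its group, the value over the 9 members was 0.033, -0.52 and 0.58. Genes within 20% of the length of SMG1 had a median deviation of -0.90 in the same library, so SMG1 was 0.45 below genes of like length. SMG6 was 0.39 and SMG5 0.31 below theirs, and UPF3A was 0.20 and SMG9 0.19 above theirs. UPF1, UPF2, UPF3B and SMG8 were within 0.11 of genes of like length. Removing the trend on length from every library gave a log2 fold change of -0.15 for SMG1 (95% interval -0.42 to 0.12) and of 0.20 for UPF3A (-0.027 to 0.42), with 0 of 9 members past either threshold beside 0.0282% of all genes past the adjusted one and 11.8% past the unadjusted one. With AdSIRT4 replicate 1 also left out, 0 of 9 members and 7.74% of all genes were past the adjusted one. How the length trend arose in this library was not tested.

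**Figure D3:**
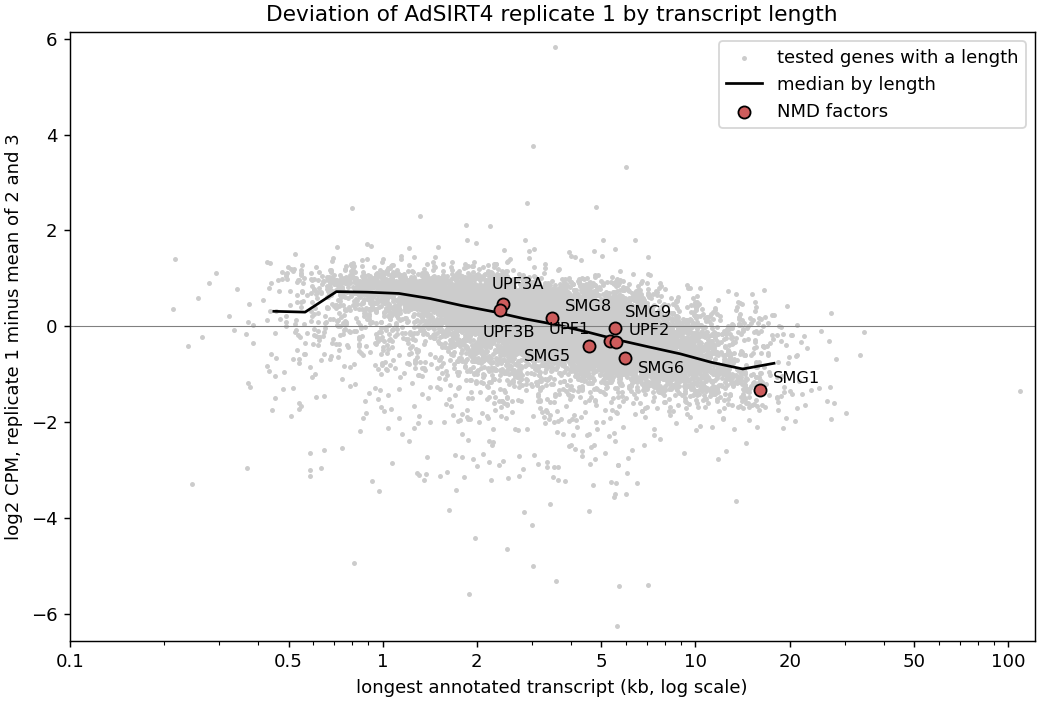
Deviation of AdSIRT4 replicate 1 from the mean of replicates 2 and 3 (y axis, log2 CPM) against the longest annotated transcript (x axis, kb, log scale) for 14550 tested genes (grey), with their median by length (black line) and the 9 NMD factors (red). UPF3A, UPF3B and SMG8 lie above 0 and SMG1, with 16115 bases, lies lowest at -1.34.

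Levels of different genes were compared per length, as FPKM. In AdCtrl cells SMG5 was highest at 36.7 ± 1.13 FPKM (SD, n = 3), then UPF3B at 20.8 ± 0.507 and UPF1 at 16.4 ± 0.857. SMG1 followed at 13.9 ± 0.947 and UPF3A at 13.8 ± 0.553, and these neighbours overlapped. The length implied by counts and FPKM varied between samples by 13.1% for SMG1 and by at most 1.5% for the other members. The place of SMG1 per length is thus less certain. UPF2 stood at 7.41 ± 0.346 FPKM, and SMG6 (5.99 ± 0.167) and SMG9 (5.80 ± 0.447) overlapped below it. SMG8 was lowest at 3.18 ± 0.204 FPKM. SMG1, first in CPM, was thus below SMG5, UPF3B and UPF1 per length. In AdSIRT4 cells the order began with the same pair, SMG5 at 32.7 ± 6.64 and UPF3B at 21.2 ± 1.96 FPKM, and again ended with SMG9 and SMG8, at 5.26 ± 0.491 and 2.99 ± 0.0461 FPKM. Between them UPF3A, UPF1, SMG1, UPF2 and SMG6 each overlapped the next in order, and SMG1 ran from 4.57 to 15.8 FPKM. Over AdSIRT4 replicates 2 and 3 the means were 36.6 FPKM for SMG5, 20.03 for UPF3B, 17.0 for UPF1, 14.6 for UPF3A and 14.4 for SMG1, which restores the order of AdCtrl cells but for the overlapping UPF3A and SMG1. UPF2 (7.97), SMG6 (6.44), SMG9 (5.45) and SMG8 (2.96) followed. The annotated 3′ UTRs of the members, a feature of several NMD targets, were longest for SMG1 (4716 bases, longer than in 94.5% of protein-coding genes) and SMG9 (3604 bases, 90.2%). SMG8 had the shortest, 237 bases, beside a median of 745 bases over 19969 genes.

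**Figure D4:**
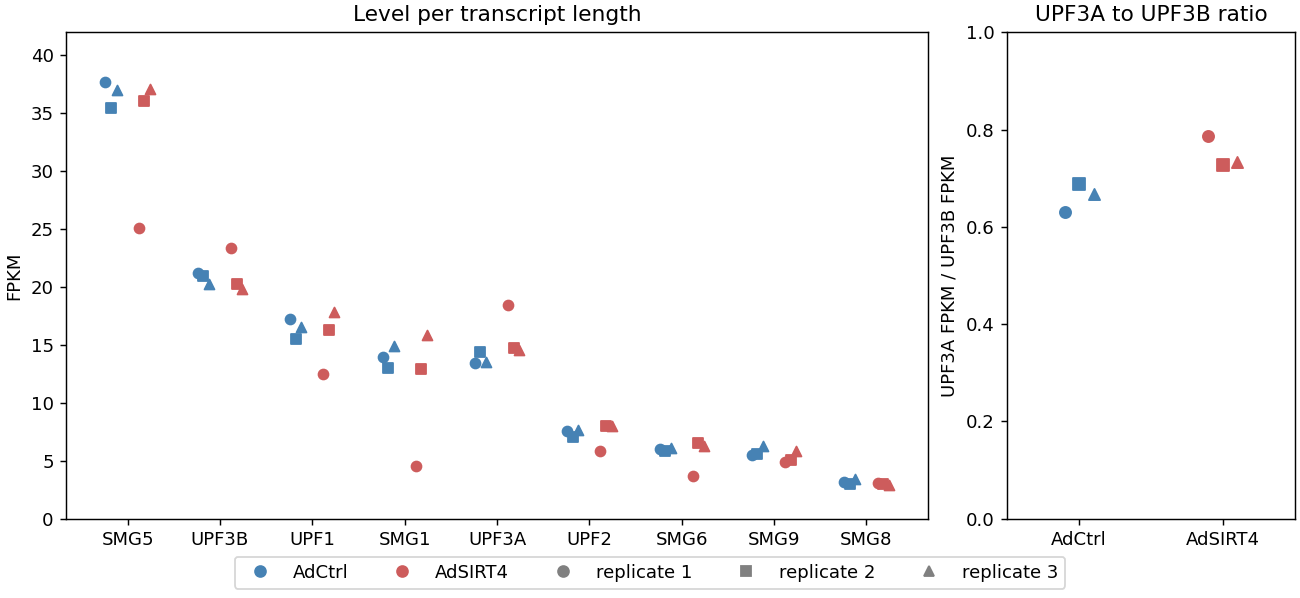
FPKM of the NMD factors in each sample, ordered by the AdCtrl mean (left), and the within-sample ratio of UPF3A to UPF3B FPKM (right), with AdCtrl in blue, AdSIRT4 in red and symbols for the replicates. SMG5 is the highest gene in every sample, and the 3 AdSIRT4 ratios (0.727 to 0.787) lie above the 3 AdCtrl ratios (0.631 to 0.688).

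Genes whose products work beside these factors were taken as fixed lists. Of 9 other NMD factors, 0 passed an adjusted or unadjusted p under 0.05 in edgeR, and their median log2 fold change was -0.021, with 4 above 0 and 5 below (-0.0079 without AdSIRT4 replicate 1). NBAS, which acts in NMD at the endoplasmic reticulum, had the smallest p of them, at 67.6, 65.5 and 70.8 CPM in AdCtrl cells and 37.1, 57.0 and 63.1 CPM in AdSIRT4 cells. All 3 AdSIRT4 values were below all AdCtrl values, as for 9.77% of tested genes, but its adjusted p was 0.686 in edgeR for a log2 fold change of -0.37. Without AdSIRT4 replicate 1 NBAS was at -0.18 (adjusted p = 0.0840), and RUVBL2 (-0.14) and SEC13 (-0.12) also had an unadjusted p under 0.05, 3 of 9 beside 24.3% of all genes. With the length trend also removed, NBAS was at -0.22 and past the adjusted threshold (adjusted p = 0.0213 in edgeR), as were 7.74% of all genes. GNL2 (0.14) and PNRC2 (0.15), next in p, had adjusted p of 0.729 and 0.776 in edgeR, and stood at 0.12 and -0.0079 without that library.

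Of the 14 genes of the exon junction complex and its partners, 0 passed either threshold in edgeR with all 6 samples, although 13 of 14 were above 0. Their median log2 fold change was 0.21, and in 4 of them all AdSIRT4 samples were above all AdCtrl samples, beside 9.66% of all tested genes. EIF4A3, the helicase that clamps the complex onto RNA, was at 72.6, 69.0 and 69.9 CPM in AdCtrl cells and at 116, 79.9 and 78.0 CPM in AdSIRT4 cells. It had a log2 fold change of 0.37, and the adjusted p was 0.641 in edgeR. PNN (0.23) and MAGOH (0.54) had adjusted p of 0.633 and 0.679. Without AdSIRT4 replicate 1 the list median was 0.077, again with 13 of 14 above 0, and EIF4A3 (0.16) and PNN (0.19) had an unadjusted p under 0.05 but adjusted p of 0.0763 and 0.115 in edgeR. These 2 of 14 (14.3%) stand beside 24.3% of all genes in that fit. With the replicate block EIF4A3 (0.35) had an unadjusted p under 0.05, 1 of 14 (7.14%) beside 7.20% of all genes, and an adjusted p of 0.693 in edgeR. In DESeq2, 2 of 14 (14.3%) had an unadjusted p under 0.05, beside 9.25% of all genes, and 0 an adjusted one. The 14 genes had a median longest transcript of 3584.5 bases, beside 5348 bases for the 9 NMD factors. With the length trend removed the list median was 0.20 over all 6 samples, again with 13 of 14 above 0. There 3 of 14 (21.4%) had an unadjusted p under 0.05 in edgeR, beside 11.8% of all genes, and 0 an adjusted one.

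The 8 genes listed for translation termination, the step at which NMD begins, include factors of initiation such as the cap-binding EIF4E. Of these 8, 0 passed either threshold in edgeR with all 6 samples, and their median log2 fold change was 0.083, with 7 above 0. The release factors ETF1 (0.17) and GSPT1 (0.11) and the ribosome recycling factor ABCE1 (0.15) had adjusted p of 0.705, 0.750 and 0.711 in edgeR. In each of these 3 genes all AdSIRT4 samples were above all AdCtrl samples, 3 of 8 beside 9.66% of all tested genes. Leaving out AdSIRT4 replicate 1 gave a median of 0.074, with 5 above 0, and 2 of 8 had an unadjusted p under 0.05, beside 24.3% of all genes. These were ABCE1 (0.13) and the cap-binding factor EIF4E (-0.18, adjusted p = 0.0737 in edgeR). ETF1 and GSPT1 stood at 0.096 and 0.089. With the length trend also removed, EIF4E was at -0.24 and past the adjusted threshold (adjusted p = 0.0330 in edgeR), as were 7.74% of all genes. Of 29 listed mRNA decay enzymes, 26 were found and tested, and 0 passed either threshold. Their median was -0.068, with 10 above 0 and 16 below, and it was 0.012 without AdSIRT4 replicate 1. The deadenylases CNOT7 (0.22) and CNOT8 (0.20) and the exosome subunit EXOSC2 (0.22) had the smallest p, with adjusted values of 0.680, 0.705 and 0.705 in edgeR. Without that library they stood at 0.11, 0.087 and 0.083, and 5 of 26 genes had an unadjusted p under 0.05 (19.2%, beside 24.3% of all genes).

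Among 27 genes whose transcripts are known as NMD targets, 0 passed the adjusted threshold and 5 (18.5%) an unadjusted p under 0.05, where 7.93% of all tested genes did. Of these, SRSF6, SRSF3, SRSF2 and ATF3 had log2 fold changes above 0 (4.43% of all tested genes) and TRIB3 had one below 0 (3.50%). SRSF6, a splicing factor that limits itself through a poison exon, was at 195, 200.1 and 200.6 CPM in AdCtrl cells and at 301, 245 and 249 CPM in AdSIRT4 cells. The 3 AdSIRT4 samples were all above the AdCtrl samples, with a log2 fold change of 0.42 and an adjusted p of 0.498 in edgeR. DESeq2 gave SRSF6 an adjusted p of 0.0447. SRSF3 was at 306, 313 and 271 CPM in AdCtrl cells and at 620, 401 and 373 CPM in AdSIRT4 cells, and its log2 fold change of 0.65 had an adjusted p of 0.545 in edgeR. The stress factor ATF3 was at 24.6, 28.0 and 29.6 CPM in AdCtrl cells and at 32.8, 36.4 and 38.2 CPM in AdSIRT4 cells, with 0.39 and an adjusted p of 0.531.

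Without AdSIRT4 replicate 1, SRSF6 (0.31, adjusted p = 0.00677 in edgeR), SRSF3 (0.38, adjusted p = 0.0116) and ATF3 (0.44, adjusted p = 0.0116) were past the adjusted threshold, 3 of 27 (11.1%), all higher in AdSIRT4 cells, as were 3.37% of all genes. SRSF2 (0.21, adjusted p = 0.0515) and TRIB3 (-0.44, adjusted p = 0.193) were not past it in edgeR. In all, 9 of 27 (33.3%) had an unadjusted p under 0.05 there, beside 24.3% of all genes. With the replicate block and all 6 samples, 6 of 27 (22.2%) did, beside 7.20% of all genes, CHAC1 (-0.41) among them. The list as a whole did not keep its balance without AdSIRT4 replicate 1. Its median moved from 0.24, with 23 above 0 and 4 below, to -0.0086, with 12 above and 15 below. These genes have short transcripts, with a median of 2499 bases. With the length trend removed, the list median was 0.18 over all 6 samples, with 22 above 0 and 5 below. There 7 of 27 (25.9%) had an unadjusted p under 0.05 in edgeR, beside 11.8% of all genes. With AdSIRT4 replicate 1 also left out the median was 0.043, with 15 above 0 and 12 below. In that fit 4 of 27 (14.8%) were past the adjusted threshold, beside 7.74% of all genes. A part of length in the shift of this list was not tested. All 27 were counted per gene. Productive isoforms and those sent to NMD can therefore not be told apart in these values.

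**Figure D5:**
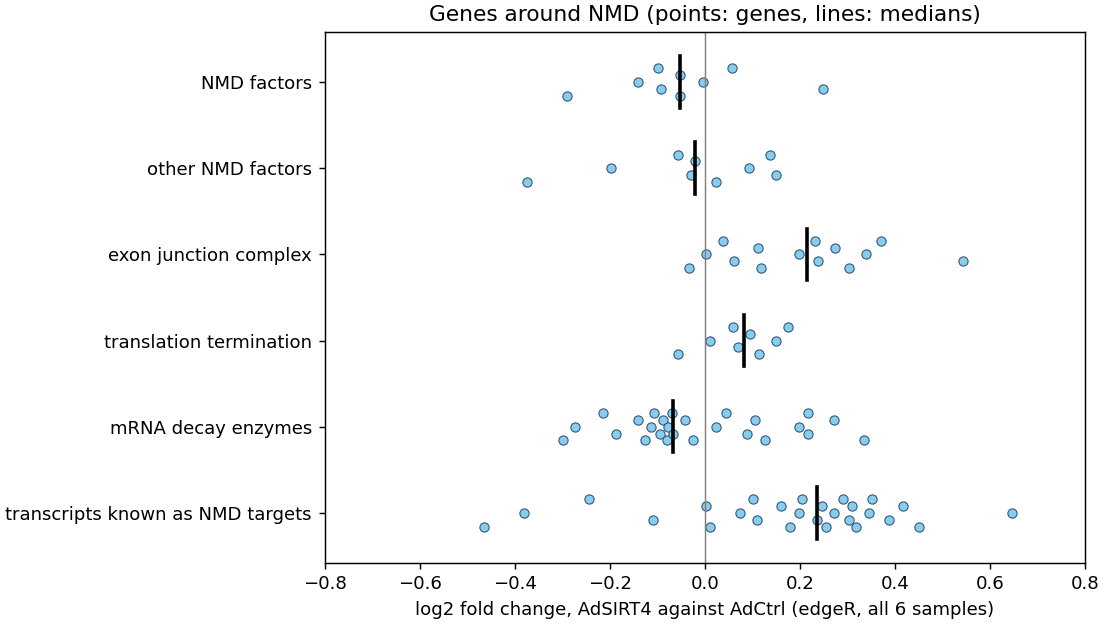
Log2 fold change, AdSIRT4 against AdCtrl, from edgeR with all 6 samples (x axis) for the NMD factors and 5 lists of genes around the pathway, 1 point per gene, with the median of each list as a black line. The NMD factors run from -0.29 to 0.25 around a median of -0.053, and the medians of the exon junction complex (0.21) and of the NMD targets (0.24) lie furthest to the right.

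The genes most like UPF1 in their pattern over the 6 samples, whatever their level, were named by Pearson correlation of log2 CPM. They were CALU, a calcium-binding protein of the secretory pathway (r = 0.995), STARD13 (0.992), and LOC124904623 (0.989), which was counted at under 0.45 CPM. CALU was at 315, 305 and 305 CPM in AdCtrl and at 283, 309 and 315 CPM in AdSIRT4 cells, lowest in AdSIRT4 replicate 1 as UPF1 was. The 6 points of each gene include that library. The longest transcripts have 4225 bases for CALU and 5917 for STARD13, beside 5348 for UPF1, and LOC124904623 had no annotated length. Whether the length trend bears on these correlations was not tested.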

How the data were processed

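Poly(A)-selected RNA of 6 samples was sequenced, and the authors deposited 1 table of gene counts and 1 of FPKM. The deposited counts were whole numbers without normalization, and the deposited FPKM values were read as fragments scaled by kilobase of transcript and by library depth (FPKM) from their relation to the counts, since their unit is not stated. The submitters' processing notes name fastp 0.21.0, HISAT2 2.1.0, StringTie 2.1.5, DESeq2 1.30.1 and the build hg38. Strand use is not given in the sources used here. Groups and replicate numbers came from the sample titles.

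Counts were tested in edgeR 4.0.16 (R 4.3.3; filterByExpr with a minimum count of 10, TMM, robust quasi-likelihood, AdSIRT4 against AdCtrl, Benjamini-Hochberg adjustment over 17720 genes, threshold 0.05). Alternatives used DESeq2 1.42.0, limma 3.58.1 on log2(FPKM + 1), a loess offset on transcript length, and each sample left out. Lengths, UTRs and shared windows came from GENCODE v29 (GRCh38), and 82.1% of tested genes had a length. Interval and zero limits cover counting or replicate error only. Same-numbered samples deviated together (r = 0.178, 0.159 and 0.176, against -0.188 to 0.0298 for other pairs). The numbers were therefore taken to pair the samples in the fits with a replicate block. The main fit, its intervals and the exact permutation tests of CPM treated the samples as unpaired. No 2 libraries were copies (chi-square per gene 9.36 to 213). Named genes were the members, SIRT4, reads shared with pseudogenes, the 3 smallest p in each other list and the 3 nearest to UPF1. HIC1, NPIPB5, BOLA2, BOLA2-SMG1P6, RUVBL2, SEC13, EIF4E, SRSF2, TRIB3 and CHAC1 were named after their values were seen. A gene that the rule also named is not reported here. Members and lists were chosen with earlier results of these data known.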

Additional observations from a re-analysis of the deposited data

How the results depend on the processing

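The count of NMD factors with an adjusted p under 0.05 was 0 of 9 under all 18 alternative settings and the 1 added after seeing the data. At an unadjusted p it was 0 too, except for 1 (SMG9, lower) with limma on log2(FPKM + 1) and the replicate block, where 8.33% of all genes passed (4.13% lower). With the replicate block in edgeR the count of calls stayed at 0, the median log2 fold change was -0.059 and SMG1 was at -0.41, and the block moved no member past a threshold. In the related lists it brought EIF4A3 and CHAC1 under an unadjusted p of 0.05 and called none after adjustment. The log2 ratio of UPF3A to UPF3B stayed above 0 (0.14 to 0.21 with 1 sample left out), with p = 0.25 in the exact sign-flip permutation over the replicate pairs, the smallest p that 3 pairs allow. With 1 sample left out, the median of the members ran from -0.14 to 0.031. The log2 fold changes then ran from -0.14 to 0.041 for UPF1, -0.055 to 0.092 for UPF2, 0.073 to 0.33 for UPF3A, -0.072 to 0.13 for UPF3B, -0.59 to 0.031 for SMG1, -0.22 to -0.020 for SMG5, -0.22 to 0.087 for SMG6, -0.11 to -0.018 for SMG8 and -0.14 to -0.047 for SMG9.

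Signs turned for several members near 0. SMG1, furthest from 0 at -0.29 with all 6 samples, also turned, to 0.031 without AdSIRT4 replicate 1. None of them was called, and the cause was not tested. With the length trend removed UPF1 was at 0.0060 and UPF2 at 0.060, and with the replicate block added at 0.0068 and 0.060. With voom sample weights UPF1 was at 0.0081, UPF2 at 0.092, UPF3B at -0.053 and SMG6 at 0.094. With the length trend removed and AdSIRT4 replicate 1 left out, an alternative chosen after seeing the data, UPF1 was at 0.016, UPF2 at 0.066, UPF3B at -0.042 and SMG6 at 0.058. Over all genes, adjusted calls numbered 2 in edgeR with 6 samples, 212 in DESeq2 and 1227 without AdSIRT4 replicate 1. The lowest count of a member was 470 (SMG8), and 3 samples a group leave intervals as wide as -1.09 to 0.51 (SMG1).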
